A study of Mus musculus with 4 samples.

Results

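Oligodendrocytes wrap axons in myelin, and they arise from progenitor cells that carry the PDGF receptor alpha and the NG2 proteoglycan on their surface. The 10 genes described here cover that lineage: the transcription factors Olig1, Olig2, Sox10 and Myrf, the progenitor surface genes Pdgfra and Cspg4, and the myelin genes Mbp, Mog, Mag and Cnp. They were taken by name from the 21938 protein-coding genes that the annotation holds on the chromosomes. CTCF, a DNA-binding zinc finger protein, sits at insulators and at the ends of chromatin loops, and cohesin tends to stop at CTCF motifs that point towards each other. CTCF binding is not expression, so the gene names say which loci were examined and not which cells the signal came from.

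The samples were left cerebral cortices from B6CASTF1/J females, adults aged 2 months, whose hybrid strain name marks a cross of the B6 and CAST backgrounds. CTCF-bound DNA was enriched with an antibody and sequenced (ChIP-seq), and the parental alleles are not separated in the lists. Pool I and pool J each combined 4 cortex biosamples and gave 2 libraries, which were merged before peaks were called. All animals shared strain, sex, age, tissue and antibody. There was 1 condition, and no treatment or mutant group is named. Whole cortex mixes neurons, glia and vessels, so a weak peak in many cells cannot be told apart from a strong one in a few, and no cell type's share is given.

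A peak's summit is its highest base, and 4 lists of peaks were searched. The conservative list (44672 peaks) holds peaks found reproducibly in both pools, the optimal list (50827) comes from the pooled reads, and pool I (82131) and pool J (52658) have a list each. The conservative and optimal lists both draw on both pools. A peak in both, such as that upstream of Olig2 (signal 177.74 in each), is not measured separately in them. The lists keep peaks with an irreproducible discovery rate (IDR) of at most 0.05. Peak strength is given by signal rank within a list, or as the percentage of the list's peaks with a lower signal value, called the percentile here. The unit of the signal and the read depth are unknown, so these are the authors' own peak values, used within a list, and the pools are 1 value each with no spread. A promoter summit lies within 1000 bp of a transcription start site (TSS), and a gene's locus is the gene with 100 kb on each side. Coordinates are on mm10, whose chromosomes are those of the GRCm38 reference, and are 1-based.

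Some of the sites described below are shown first, as the GRCm38 reference reads on the strand of the CTCF motif, 5′ to 3′. The bases of the CAST alleles were not examined. Sites of Mbp and of the Myrf promoter are not shown, though some are stronger than those printed. Capitals mark the 20 bases that match the motif and lower case the 10 bases on each side. The motif was learned from CTCF peaks on chromosomes without any of these genes, and its most frequent bases read GTGGCCACCAGGGGGCGCTA. Both sites of the Olig interval are shown because they face each other across both genes, and the 3 sites of Pdgfra because they crowd into 1 intron. The others are sites inside or strongest around their gene, the nearest site of Cnp and the nearest motif-bearing site of Mog.
Olig2 upstream site, + strand, chr16:91224867-91224906: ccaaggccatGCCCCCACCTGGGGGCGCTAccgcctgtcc
Olig1 downstream site, − strand, chr16:91314315-91314354: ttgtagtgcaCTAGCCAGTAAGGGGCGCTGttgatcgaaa
Sox10 intron site, + strand, chr15:79162998-79163037: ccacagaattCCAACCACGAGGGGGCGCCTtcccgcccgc
Pick1 intron site of the Sox10 locus, + strand, chr15:79243359-79243398: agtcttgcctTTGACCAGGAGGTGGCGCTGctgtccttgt
Myrf intron site, + strand, chr19:10219263-10219302: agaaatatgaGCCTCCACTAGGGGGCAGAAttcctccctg
Pdgfra intron site 1, + strand, chr5:75155803-75155842: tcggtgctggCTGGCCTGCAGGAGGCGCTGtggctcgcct
Pdgfra intron site 2, − strand, chr5:75156358-75156397: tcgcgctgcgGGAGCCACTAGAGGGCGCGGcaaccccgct
Pdgfra intron site 3, − strand, chr5:75157242-75157281: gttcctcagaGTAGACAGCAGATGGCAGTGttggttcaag
Cspg4 intron site, − strand, chr9:56889905-56889944: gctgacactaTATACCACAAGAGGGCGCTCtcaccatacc
Mog downstream site, − strand, chr17:36997178-36997217: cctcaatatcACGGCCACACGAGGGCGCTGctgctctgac
Mag intron site, − strand, chr7:30904232-30904271: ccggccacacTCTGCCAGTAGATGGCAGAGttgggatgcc
Cnp upstream site, + strand, chr11:100570606-100570645: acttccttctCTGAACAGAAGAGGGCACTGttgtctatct

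The sites differ in how closely they follow the consensus. The Olig2 site shares 16 of its 20 bases and the Mag site 9, and both pass the score threshold. CpG dinucleotides, which can be methylated, number 6 in the 40 bases of Pdgfra intron site 2 and 0 in those of Pdgfra intron site 3, the Myrf and the Cnp sites.

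Each of the 10 loci held at least 5 conservative summits, 96 distinct ones together, where the median protein-coding gene had 7 in the same span. All 10 thus had at least 1 summit, against 91.0% of all protein-coding genes. The optimal, pool I and pool J lists also had one in all 10 loci, against 91.4%, 93.1% and 91.6% of protein-coding genes. Of the 10 genes, 3 had a promoter summit, namely Olig2, Myrf and Pdgfra, against 20.8% of protein-coding genes. A summit lay inside 6 genes, namely Sox10, Myrf, Pdgfra, Cspg4, Mbp and Mag, against 45.8% of protein-coding genes. With 10 genes chosen by name these shares are descriptions, and none is read as particular to the lineage.

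**Figure D1:**
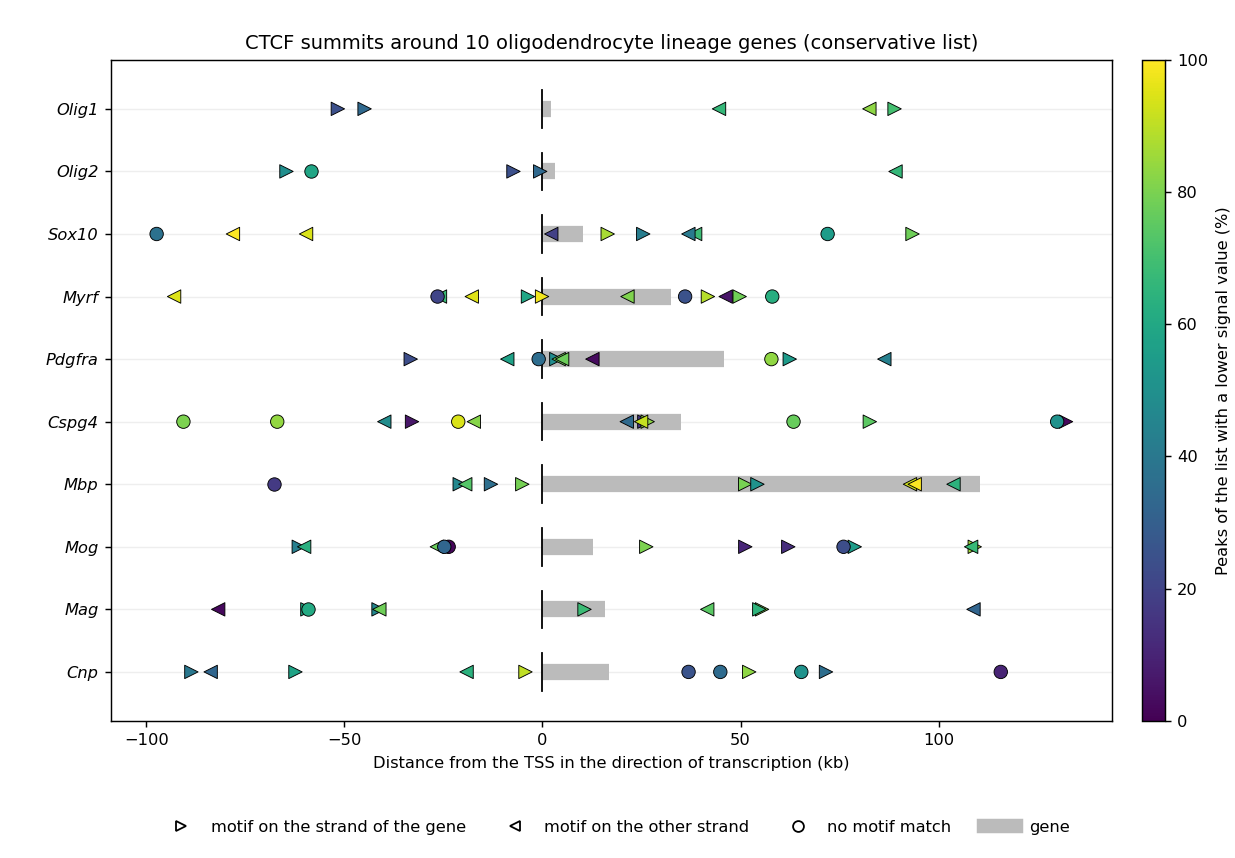
Conservative CTCF summits by distance from the TSS (kb, in the direction of transcription; the black tick is the TSS) in each of the 10 loci. Colour gives the percentile of the signal, and arrowheads give the strand of the motif relative to the gene. Olig1 and Olig2 hold 5 summits each and Cspg4 holds 14.

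Most of the loci were denser in CTCF sites than the median gene. The median was 46.95 summits per Mb in the 10 loci and 29.12 over all protein-coding genes, and 8 of the 10 lay above that gene median. The count per locus ran from 5 at Olig1 and Olig2 up to 14 at Cspg4. The 96 summits ran from weak to strong, with a median signal of 338.77 against 268.85 in the whole conservative list. Their median percentile was 59.54, 10 lay among the strongest 10% and 7 among the weakest 10%. Summits around the genes had median percentiles of 57.13, 58.01 and 58.95 in the optimal, pool I and pool J lists. The difference from the whole lists was not tested.

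Most summits around these genes held a CTCF motif. A match lay within 50 bp in 74 of 96 (77.1%; exact 95% binomial interval 67.4 to 85.0%, for counting of summits only), and in 71.1% of the whole list. Windows 1000 bp beside the conservative summits of the chromosomes that carry the 10 genes held one in 1.19%. Motif centres lay a median of 5.5 bp away. All 16 summits inside the genes had a match, against 4 of the 5 promoter summits, of which 2 are also inside a gene. Of the 96 summits, 42 lay in introns of protein-coding genes, 35 between genes, 5 in coding exons, 4 in 3' UTRs and 3 in 5' UTRs.

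Olig1 and Olig2, the basic helix-loop-helix factors that open the lineage, are neighbours on chromosome 16 and shared an uninterrupted CTCF interval. Their TSSs lie 44315 bp apart on the same strand, and no conservative summit lay between them. The interval ran 89437 bp, starting 567 bp upstream of Olig2 and ending 44555 bp downstream of the Olig1 TSS. It is longer than that of 65.0% of protein-coding genes in the conservative list, and the other lists gave 89437, 89440 and 89440 bp (optimal, pool I and pool J).

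The motifs at its ends faced each other. The Olig2 upstream site lies on the + strand and the site downstream of Olig1, in an intron of the non-coding gene Gm15966, on the − strand, so both genes sit between convergent motifs. The Olig2 peak was of modest strength, with a signal of 178 in the conservative list at percentile 33.98 (rank 29493). It stood at percentile 65.17 in pool I's list and 37.64 in pool J's list, which differ in length. The downstream site stood at percentile 66.52 (rank 14955, signal 390).

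The whole Olig2 peak, chr16:91224779-91225002 on the + strand, is 224 bases long and is given because it closes the Olig interval and lies at a promoter. Its motif centre is 3.5 bp from the summit. It reads: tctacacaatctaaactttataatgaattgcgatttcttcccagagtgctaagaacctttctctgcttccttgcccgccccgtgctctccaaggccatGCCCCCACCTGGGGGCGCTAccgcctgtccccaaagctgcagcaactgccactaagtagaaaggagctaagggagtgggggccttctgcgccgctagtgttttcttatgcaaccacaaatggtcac. Its GC content is 53.1%, and it holds 7 CpG dinucleotides.

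Beyond the interval, another + strand site lay 7312 bp upstream of Olig2 (percentile 24.49). The strongest site of the Olig1 locus lay 82496 bp downstream of its TSS, on the side of the interferon receptor gene Ifnar2, at percentile 82.93. Olig1 had no promoter summit in any of the 4 lists. A pool I peak 245 bp from its TSS reached an IDR of 0.0553, just short of the threshold, and the ranked lists of pool J and of both pools held none there.

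Sox10, the SRY-box factor that switches on myelin genes, had a weak site in its own intron and very strong ones upstream. The intron summit lay 2222 bp inside the gene, and 1472 bp from the nearer of its 2 annotated TSSs, so it fell outside the promoter window. Its percentile was 19.13. On the other side the nearest conservative summit was 59655 bp upstream (percentile 94.40), and the interval between them held 61877 bp.

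The upstream neighbour of Sox10 differed between the lists, while the intron summit lay 1467 to 1472 bp from the nearer TSS in all 4. The upstream summit was 26404 bp away in the optimal list, 26392 bp in pool J's list and 1748 bp in pool I's list, where it stood at percentile 21.42 without a motif. The strongest peak of all 10 loci in the conservative list lay 78107 bp upstream of Sox10, in an intron of Pick1, which encodes a scaffold protein. Its rank was 37 of 44672, and it ranked 137 in pool I and 171 in pool J. It was nevertheless absent from the optimal list, the only one of the 96 summits of which this was so.

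Myrf, the membrane-tethered factor that drives the myelin programme as cells differentiate, had the strongest of the 5 promoter peaks. Its summit lay 97 bp upstream of the TSS (chr19:10240631-10241050), with a signal of 624, percentile 98.00 and rank 892. It was strong in both pools, at percentile 96.71 in pool I and 98.82 in pool J. A motif on the − strand, the strand of the gene, lay 38.5 bp from the summit, the farthest of all 74 matches.

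The Myrf promoter also faced a site within the gene. The intron site 21455 bp downstream (percentile 80.74) lies on the + strand, so the TSS sat between convergent motifs 21552 bp apart. All 4 lists gave that interval within 21544 to 21556 bp. A second summit lay 3650 bp upstream of the TSS (percentile 59.10), and a strong one in an intron of Dagla, the neighbouring lipase gene, 17835 bp upstream (percentile 95.31).

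**Figure D2:**
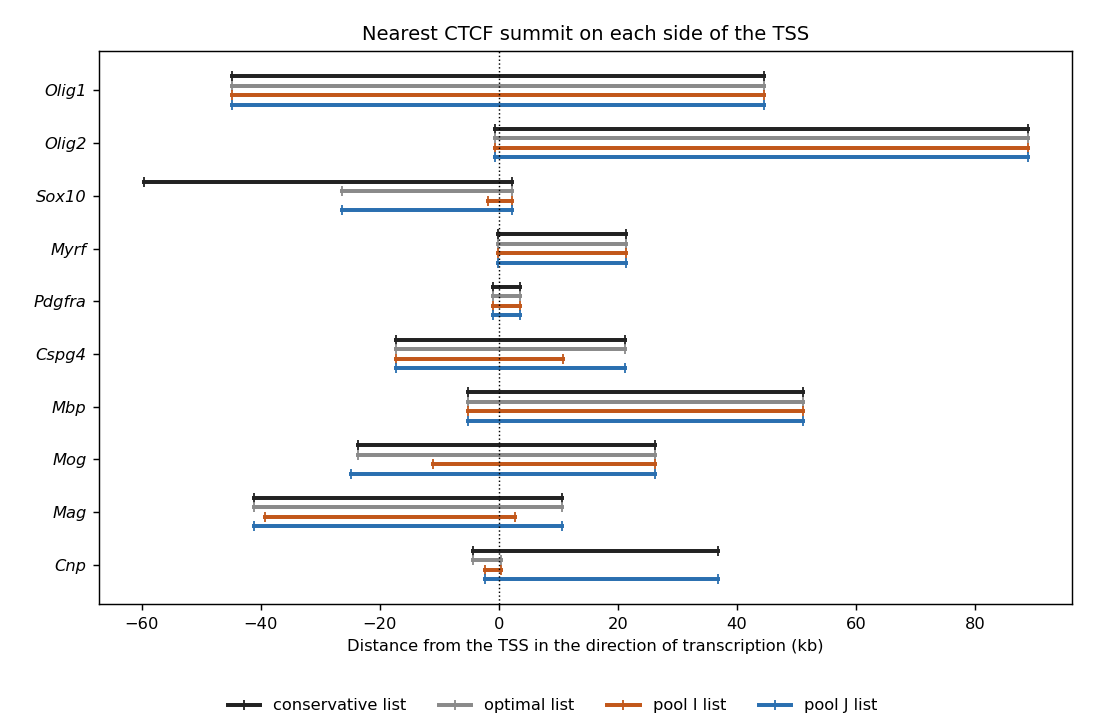
Distance (kb, in the direction of transcription) from each TSS to the nearest CTCF summit on each side, with 1 line per list. The lines of Olig1, Olig2, Myrf, Pdgfra and Mbp end at nearly the same places in all 4 lists, while those of Sox10 and Cnp change length. Those of Cspg4, Mog and Mag are shorter in pool I's list than in the conservative list. The Cnp interval is 41155 bp in the conservative list and 2783 bp in pool I's list.

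Pdgfra, the receptor through which platelet-derived growth factor keeps progenitors dividing, had CTCF crowded around its start. It had 3 promoter summits, more than any other of the 10 genes. The first lay 955 bp upstream of the main TSS, just inside the promoter window, at percentile 35.18 and without a motif. The other 2 lay in an intron, 103 and 490 bp from an alternative TSS at position 75155899, at percentiles 48.48 and 78.80.

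Another intron summit lay 1357 bp from that TSS, just outside the window, at percentile 77.51. Intron summits 1 and 2 lay 593 bp apart and summits 2 and 3 lay 867 bp apart, and their motifs read +, − and −, so the first 2 faced each other. In the conservative list the interval around the main TSS was the shortest of the 10, at 4459 bp, shorter than that of all but 3.76% of protein-coding genes. It was 4459 to 4463 bp in the 4 lists, but in pool I's list Cnp (2783 bp) and Sox10 (3968 bp) had shorter ones. The nearest motif-bearing summits around the main TSS were divergent, since the one 955 bp upstream has no match.

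Cspg4, which encodes the NG2 proteoglycan, had no promoter summit in any list but the most crowded locus. It held 14 conservative summits, or 59.62 per Mb, more than 87.4% of protein-coding genes. The nearest lay 17315 bp upstream (percentile 81.80) and 21272 bp downstream (percentile 34.32), the downstream one in a coding exon. In its body 4 summits fell between 21272 and 26557 bp from the TSS, and the strongest of these, in an intron, stood at percentile 91.18.

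The strongest Cspg4 peak, 21250 bp upstream, stood at percentile 94.22. Its best sequence match scored just under the threshold, 13.06 at the precision given here, and so counts as no motif. Pool I's list held 29 summits in the locus and pool J's list 22.

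**Figure D3:**
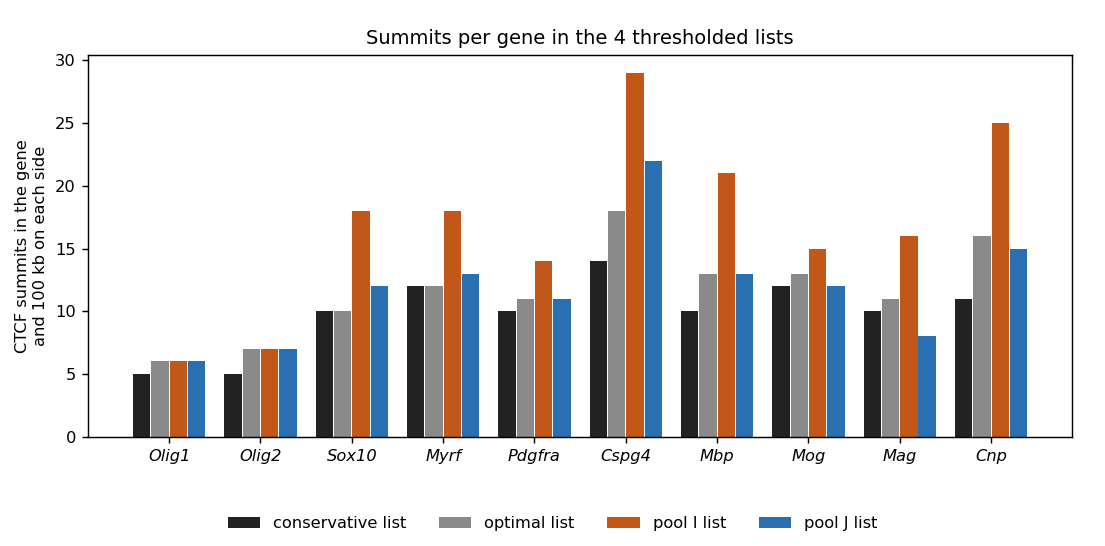
Number of CTCF summits in each gene and 100 kb on each side, in the conservative, optimal, pool I and pool J lists (bars, from 0). Pool I's list gives the highest count for 8 genes, and Olig1 and Olig2 stay between 5 and 7 in all lists.

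Mbp, whose protein compacts the myelin membrane, had no promoter summit at either of its start regions. Its 110492 bp hold 10 TSSs in separate groups, an upstream group that begins at 82475146 and a downstream group between 82554470 and 82554580. The nearest conservative summit was 5086 bp upstream of the first (percentile 78.94) and 13312 bp from the last of the downstream ones. CTCF was strong within the gene: of 5 summits inside it, the strongest stood at percentile 99.28 (rank 323, signal 652), 93936 bp downstream of the first TSS.

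A second strong Mbp summit lay 1190 bp from it, at percentile 92.95. Both have motifs on the − strand, opposite to the gene, whereas the intron summits nearer the start, 51170 and 54252 bp in, have theirs on the + strand. The strongest ranked 1267 in pool I and 260 in pool J. Mbp lies on chromosome 18.

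Mog, an immunoglobulin-like protein of the outer myelin surface, had no CTCF summit at its promoter or in its body in any of the 4 lists. The nearest conservative one lay 23666 bp upstream, in an intron of the GABA receptor gene Gabbr1, with a percentile of 1.61, the weakest of the 96, and no motif, and was not in pool J's list. The nearest on the other side lay 26199 bp downstream at percentile 80.14, beside the zinc finger gene Zfp57. Pool I's list had a weak motif-bearing summit 11043 bp upstream (percentile 4.62).

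Mag, the adhesion protein on the inner face of myelin, had 1 conservative summit inside the gene, in an intron 10617 bp from the TSS (percentile 68.25). Pool I's list held 2 inside the gene, the nearer 2717 bp from the TSS at percentile 24.46. The next conservative summit upstream lay 41162 bp away, in an intron of Usf2, at percentile 77.85. That interval held a second summit 200 bp away, whose signal was 169 in pool I and 17.7 in pool J. Of the 96 summits only that one (1.04%) had a log2 ratio of the pools more than 1 from the list's median. In the whole conservative list 0.47% of summits did.

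Cnp, the cyclic nucleotide phosphodiesterase of non-compact myelin, had no promoter summit in the conservative list and one in the optimal and pool I lists. The promoter peak, 403 bp from the TSS in the gene, was weak, at percentile 5.84 in the optimal list and 40.50 in pool I's list. In the ranked list of both pools it had an IDR of 0.682, and pool J's ranked list held none there. The nearest conservative summits lay 4284 bp upstream, at percentile 90.38 in an intron of Ttc25, and 36871 bp downstream, at percentile 25.52.

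With the optimal list 4 of the 10 genes had a promoter summit, against 23.8% of protein-coding genes, and Cnp was the addition. Pool I's list gave the same 4 genes, against 37.4%, and pool J's list gave the 3 of the conservative list, against 25.2%. Inside the gene, 7, 7 and 6 of 10 had a summit in the optimal, pool I and pool J lists, against 48.6%, 59.2% and 49.4% of protein-coding genes.

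The TSS lay between convergent nearest motif-bearing sites for 3 of 10 genes (Olig1, Olig2 and Myrf), against 28.8% of 21624 protein-coding genes with such sites on both sides. As Olig1 and Olig2 share a pair of sites, these are 2 intervals. The TSS lay between divergent sites for 3 genes (Pdgfra, Mog and Mag), against 24.7%, and between sites of like strand for 4 (Sox10, Cspg4, Mbp and Cnp), against 46.6%. With the optimal and pool I lists Cnp was added to the convergent ones, which then made 4 of 10, against 27.7% and 27.2%. Pool J's list gave 3, against 28.0%. Divergent sites flanked 3, 3 and 2 genes in the optimal, pool I and pool J lists, against 24.7%, 24.3% and 24.9%. Sites of like strand flanked 3, 3 and 5, against 47.6%, 48.5% and 47.1%. These shares lie near those of all genes. Each gene was scored only at its most upstream TSS. In the conservative list the downstream TSSs of Mbp lay between convergent sites, 54252 and 92746 bp from the first TSS. The lists of pool I and of pool J also placed these TSSs between convergent sites. In the optimal list the nearest site before them lay on the − strand. The alternative TSS of Pdgfra also lay between convergent conservative sites, 103 and 490 bp away.

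Most of these sites were found in both pools. In pool I's list 165 summits lay around the 10 genes, and 118 (71.5%; exact 95% binomial interval 64.0 to 78.3%) overlapped a pool J peak by at least 1 bp, against 63.1% of the whole pool I list. All 115 pool J summits there overlapped a pool I peak (lower bound 96.8%), against 97.5% of the whole pool J list. Both intervals are for counting of summits only. Summits of 1 locus are not independent draws, so neither interval tests a difference from the whole list. The 47 unshared pool I summits were weak, with a median percentile of 17.90 and none above 55.33. At the 96 conservative summits log2 of the signal in pool I over that in pool J had a median of 0.97 (SD 0.41 over summits), against 1.09 (SD 0.39) over the whole list. The scales of the pools are not known to be comparable.

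**Figure D4:**
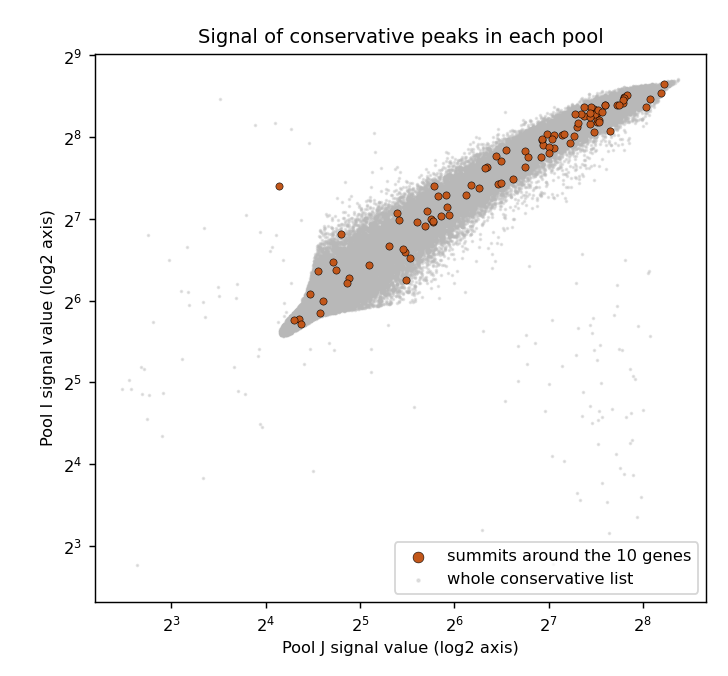
Signal value in pool I (vertical) against pool J (horizontal) for the 96 conservative summits around the 10 genes (orange) and for the whole conservative list (grey), on log2 axes. The orange points follow the grey ones except 1, the weaker summit of the Usf2 peak.

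Some of the strongest peaks around these genes in each pool were left out of the conservative list. Of the 5 pool I summits in the strongest 5% of that list whose pool J counterpart was in the strongest 5% too, 3 were in the conservative list, those in Pick1, in Mbp and at the Myrf promoter. The other 2 were a peak 64298 bp upstream of Myrf, ranked 34 in pool I and 231 in pool J, and a peak 47914 bp downstream of Cnp, ranked 188 and 1408. In the ranked list of both pools they had IDRs of 0.682 and 0.0737, above the threshold of 0.05. Over the whole list 9.80% of 2275 such pool I summits were left out, and of pool I's strongest 200 summits 65.5% were.

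The 51 other oligodendrocyte and myelin genes with an entry in the annotation, from a list of 52 names, had a promoter summit in 18 cases (35.3%), against 20.8% of protein-coding genes. They included 4 of 10 transcription factors, 5 of 11 progenitor surface and signalling genes, 3 of 14 myelin membrane genes, 4 of 9 lipid and metabolic enzymes and 1 of 4 genes of RNA and trafficking. Among the strongest promoter summits was that of Kif1b, a kinesin motor gene (percentile 98.55). Others lay at Ninj2, an adhesion molecule gene (80.89), Erbb3, a neuregulin receptor gene (79.38), and Zfp536, a zinc finger factor gene (63.71). Aspa and Bcas1 were among the 33 without one. A summit inside the gene was present in 31 of 51, against 45.8% of protein-coding genes. These counts are from the conservative list. In the optimal, pool I and pool J lists 17, 25 and 16 of the 51 had a promoter summit. The shares of protein-coding genes were 23.8%, 37.4% and 25.2%. With genes chosen by name these shares are descriptions only.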

How the data were processed

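CTCF ChIP-seq peak lists of left cerebral cortex were analysed, and the labels name the pools. Per the notes deposited with the lists, each derives from 1 alignment per pool on mm10. The aligner is not given in the sources used here, nor is the peak caller. The labels name a possible control, without saying how it was used. The score the authors deposited is a scaled IDR, and the signal value they deposited has no stated unit. The ranked lists the authors deposited give the IDR as −log10. In the ranked list of both pools, 84.48% of first inputs were identical to a pool I peak and 61.83% of second inputs to a pool J peak, with 0 matches crosswise. The read depth is unknown.

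TSSs and genes came from the GENCODE M21 basic annotation, and bases from the GRCm38.p6 genome. The motif was seeded by CCANNAGNNGGC on both strands in the strongest 1000 conservative peaks of 10 chromosomes without members, and refined to 20 bp. A match had to pass the score that 1% of flanking windows there passed, within 50 bp of the summit. The motif scan and counting were tested on simulated data. Versions were pysam 0.24.0, SciPy 1.17.1, numpy 2.4.6, pandas 2.3.3 and matplotlib 3.10.9 under Python 3.11.15.

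The members, the 52 other genes and the settings were chosen with earlier results of these data known. No test was run: the design has 1 condition and 2 pools. All 10 genes were named. Of the 52, the 5 with the strongest promoter summit and the alphabetically first 3 without one were to be named, and some of these are not reported here.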

Additional observations from a re-analysis of the deposited data

How the results depend on the processing

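The promoter count of 3 was 2 to 4 with the other lists, IDR 0.01, a 500 bp window and other TSS choices, and 5 with a 5000 bp window. The 96 distinct summits became 180 with flanks of 200 kb and 165 in pool I's list. The median interval of 50822 bp became 32637 bp in pool I's list. The motif share of 77.08% became 29.17% with a threshold that 0.1% of flanks passed and 65.62% within 20 bp. The share of pool I summits also in pool J, 71.52%, became 58.18% when 0.5 of each interval had to overlap and 84.24% with pool J's ranked list. The share of pool J summits also in pool I, 100%, became 83.48% under that overlap. The alternatives that shifted a value used wider or narrower windows, longer lists or stricter matches, and the cause of each shift was not tested. The counts of genes with a summit inside, the convergent count and the median log2 ratio moved by less than 1.5 times or their SD under every alternative run. No paired analysis was possible because the 2 libraries of a pool were merged before peaks were called, and leaving out a library could not be run for that reason.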
